A study of Mus musculus with 24 samples.

Results

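The inner and the outer epithelial layer of the mouse mammary gland were compared in control mice: luminal cells without the surface antigen Sca1 against basal cells without GFP. The comparison rests on 6 arrays of the 24 in the study, 3 per population, taken by their sample titles, and on 19937 genes that had a probe set with 1 gene symbol. All mice carried Lgr5-creERT2, a tamoxifen-inducible Cre recombinase driven by the Lgr5 gene, on a mixed FVB/C57BL6 background. They had received tamoxifen 4 weeks earlier, the controls included. The labels name nothing further for control mice. Mutant mice also carried the PIK3CA H1047R transgene, an activated form of a PI3-kinase catalytic subunit, and are used below only for their own Sca1-negative luminal and GFP-negative basal cells. Control Sca1-positive luminal cells, also GFP-negative, are used to place the luminal levels. Each array held RNA amplified from 250 sorted cells, and each replicate was a pool of 2 to 3 estrus-synchronised mice from 1 of 3 sortings. No age was given in the sources used here.

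The gates were set on cells without the leukocyte antigen CD45. Basal cells were CD24-low and Sca1-negative, and luminal cells were CD24-high and either Sca1-negative or Sca1-positive. By the sorting protocol GFP stood for expression of Lgr5, of the transgene, or of both, and all 6 control arrays came from GFP-negative cells. In mutant mice the Sca1-negative luminal cells were GFP-positive and the basal cells used here GFP-negative. The labels call the tissue preneoplastic mammary gland in both genotypes. Because CD24 and Sca1 set the gates, CD24 mRNA is not a finding between them, and the probe sets could not read Ly6a, which encodes Sca1.

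Mammary ducts have an outer basal layer of myoepithelial cells, which contract under oxytocin to eject milk and lay down the basement membrane, and an inner luminal layer that faces the duct and makes milk. The luminal layer holds hormone-sensing cells, which carry oestrogen and progesterone receptors and are mostly Sca1-positive, and alveolar progenitors, which are KIT-positive, depend on the factor ELF5 and are mostly Sca1-negative. Contractile genes are commonly switched on through serum response factor at a DNA site called the CArG box, and milk protein genes through STAT5 at sites of the form TTCNNNGAA.

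The promoters of some genes that lay on opposite sides of the comparison show such sites. The windows below are from RefSeq, build GRCm38.p6, are written 5′ to 3′ on the gene's strand, and hold the motif in capitals. Myl9, which encodes a myosin light chain of contractile cells, and Cnn2, which encodes a calponin, hold a CArG box.
Myl9, chr2:156775273-156775342, plus strand, motif from -161 to -152: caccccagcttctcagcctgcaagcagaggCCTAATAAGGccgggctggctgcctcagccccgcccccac
Cnn2, chr10:79988514-79988583, plus strand, motif from -56 to -47: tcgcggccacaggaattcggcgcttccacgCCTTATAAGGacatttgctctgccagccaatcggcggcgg
Csn1s1 and Csn2, which encode caseins, the main proteins of milk, hold TTCNNNGAA.
Csn1s1, chr5:87666078-87666146, plus strand, motif from -100 to -92: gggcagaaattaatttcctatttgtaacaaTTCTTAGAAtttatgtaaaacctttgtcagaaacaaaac
Csn2, chr5:87699480-87699548, minus strand, motif from -93 to -85: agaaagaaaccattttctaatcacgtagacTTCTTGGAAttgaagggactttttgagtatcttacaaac
Positions count back from the gene start, with -1 the base before it. On either strand of the 250 bases before the start, 4 of 28 contractile genes with a promoter sequence held a CArG box, namely Cnn2, Myl9, Srf and Vcl (14.3%), against 1.62% of all 27025 genes with one. The site TTCNNNGAA stood in 3 of 15 milk genes, Csn1s1, Csn2 and Glycam1, against 8.13% of all genes. A further motif, GGAAGT, of the kind that ETS factors such as ELF5 and EHF read, stood in 2 of 14 progenitor genes, Wfdc18 and Wap, against 22.2% of all genes. Acta2, Myh11, Cnn1 and Tagln were not among the genes found with a CArG box. A promoter sequence was lacking for 4 of 32 contractile, 7 of 22 milk and 9 of 23 progenitor genes, which were not scanned. These are descriptions of letters, with no test. Of the 4 genes printed, Myl9 and Cnn2 were lower and Csn1s1 and Csn2 higher in luminal cells, while Srf, Vcl, Glycam1 and Wap were not called either way. The call of Cnn2 did not hold under every alternative setting described below.

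Expression was deposited on a log2 scale, with 1 value per probe set and array. The 6 arrays were even, with medians of 4.386 to 4.508 and standard deviations of 1.893 to 1.955. Across genes, arrays of a population correlated at 0.954 to 0.959 for basal and 0.959 to 0.966 for luminal cells, and at 0.879 to 0.898 between the populations. Differences below are luminal minus basal log2 values with their standard error, from a limma fit of all 24 arrays. A gene was called at an adjusted p under 0.05. The p-values weigh a difference against the spread between pools. In sorted bulk samples, fewer cells of a type and less RNA per cell cannot be told apart. Values near or under 4.60, the median over all genes, lie where arrays measure poorly, so a large fold against such a level is not exact.

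Of the 19937 genes, 1960 were called (9.83%). Luminal cells were higher for 983 genes (4.93%) and lower for 977 (4.9%), and the median difference over all genes was 0.016. With only the 6 compared arrays in the fit 1045 genes were called, 493 higher and 552 lower. At least 2-fold differences were called for 667 higher (3.35%) and 742 lower genes (3.72%). Differences of at least 8-fold numbered 94 higher and 122 lower, and of at least 32-fold 10 higher and 21 lower. The 3 luminal arrays all lay above the 3 basal arrays for 2642 genes (13.3%) and all below for 2291 (11.5%). Under every one of 14 alternative settings 767 of the calls were kept, 367 higher and 400 lower.

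**Figure D1:**
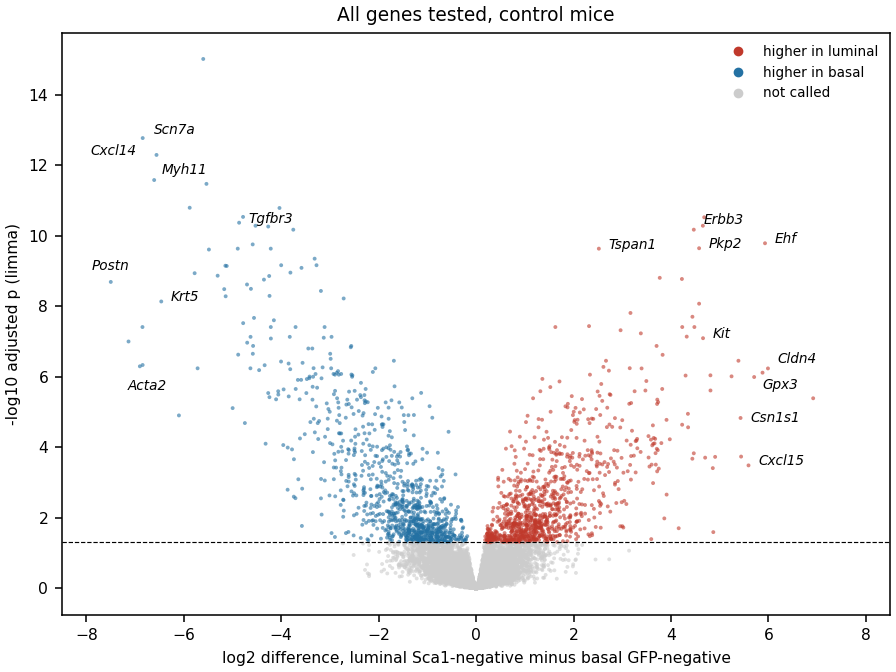
Log2 difference between control luminal Sca1-negative and control basal GFP-negative cells (x axis) against -log10 of the limma adjusted p (y axis), 1 point per gene for 19937 genes. Red points are the 983 genes called higher and blue points the 977 called lower in luminal cells, grey points are not called, and the dashed line marks an adjusted p of 0.05.

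Markers of the 2 layers were compared first. All 10 basal markers were lower in luminal cells, with a median difference of -5.22. Of 8 luminal markers 7 were higher, with a median of 2.47, and Cd24a missed the call at 0.60 ± 0.21 (adjusted p = 0.083). Of 8 luminal progenitor markers 7 were higher, with a median of 4.29. Itga2, an integrin subunit used to mark these progenitors, missed the call at 1.23 ± 0.59 (adjusted p = 0.24). The mean level of the 10 basal markers ran from 10.56 to 10.91 in the basal arrays and from 5.20 to 5.31 in the luminal arrays. The 8 luminal markers averaged 8.03 to 8.22 in the basal and 10.70 to 10.87 in the luminal arrays. The luminal markers as a set were thus above the array median in the basal gate too. Ptprc, which encodes CD45, stood at 4.25, 4.21 and 4.47 in luminal and 4.23, 4.43 and 4.24 in basal arrays.

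The basal gate, labelled free of Lgr5 expression, held Lgr5 mRNA above the luminal level. Its level against the GFP-positive basal arrays was not compared here. Lgr5, a receptor for R-spondin that strengthens Wnt signals, whose promoter drives the Cre here, stood at 8.83, 8.34 and 7.04 in the GFP-negative basal arrays. In luminal arrays it stood at 4.53, 4.56 and 4.25, a difference of -3.62 ± 0.39 (adjusted p = 4.4e-06, limma). Every basal array lay above every luminal one, and basal replicate 3 was the lowest of its group.

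**Figure D2:**
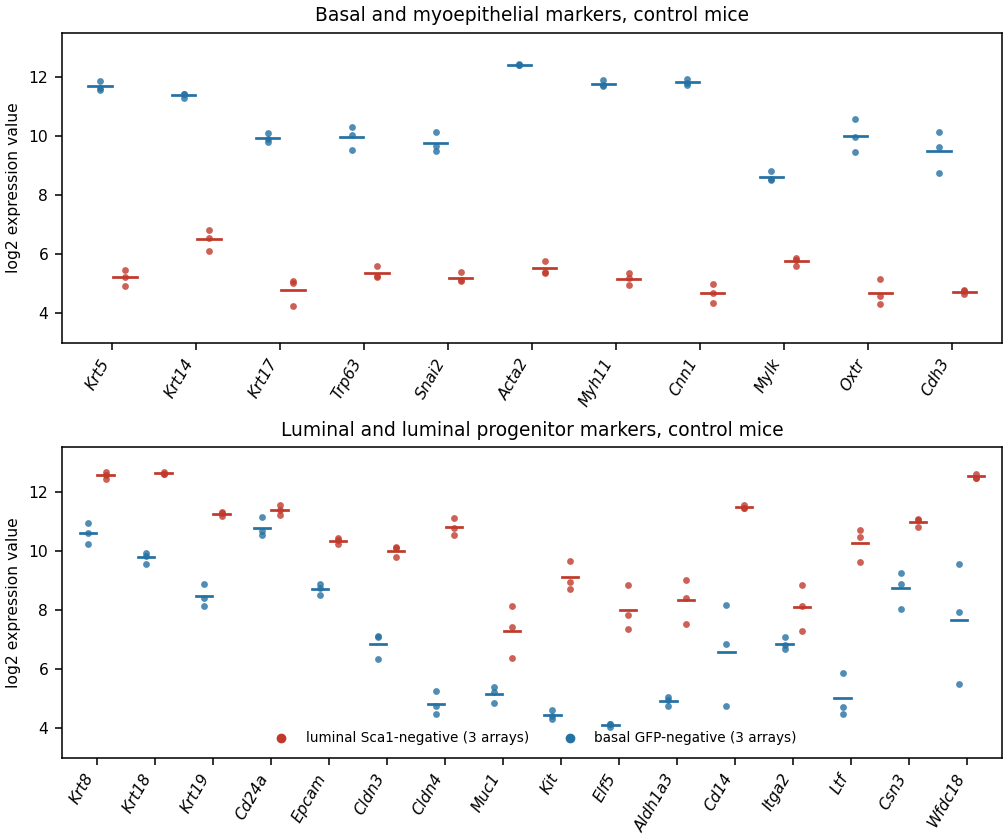
Log2 expression values (y axis) of basal and myoepithelial genes (upper panel) and of luminal and luminal progenitor genes (lower panel) in the 3 control luminal Sca1-negative arrays (red) and the 3 control basal GFP-negative arrays (blue). Each point is an array and each line the mean of 3; for the basal genes shown every blue point lies above every red one, whereas Cd14 and Wfdc18 spread widely among the basal arrays.

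The contractile programme marked the basal side. Of 32 genes of smooth muscle contraction, 24 were lower in luminal cells and 1 was higher, with a median difference of -2.41. Acta2, smooth muscle actin, stood at 12.45, 12.40 and 12.40 in basal arrays and at 5.37 to 5.77 in luminal arrays. The populations were far apart and each was tight, a difference of -6.90 ± 0.62. Myh11, the smooth muscle myosin heavy chain, stood at 11.70, 11.74 and 11.88 in basal and 5.21, 4.94 and 5.35 in luminal arrays. Its difference was -6.61 ± 0.24 (adjusted p = 2.6e-12). Cnn1, a calponin that damps myosin, differed by -7.13 ± 0.57, and Tagln, an actin-binding protein of smooth muscle, by -5.88 ± 0.24. Myl9, whose promoter is shown above, stood at 12.20, 12.46 and 12.16 in basal and 6.61, 4.96 and 4.72 in luminal arrays, so 1 luminal array was higher than the others. Oxtr, the oxytocin receptor that makes these cells respond to suckling, differed by -5.30 ± 0.31. Mylk, the kinase that activates myosin, differed by -2.86 ± 0.27.

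Regulators of contractile genes were not called lower. Srf, the factor that binds the CArG box, stood at 8.51 to 9.25 in luminal and 8.10 to 9.33 in basal arrays, and the populations overlapped. Its coactivators Mrtfa and Mrtfb differed by -0.60 and 0.20 and were not called. Myocd was the member called higher, by 0.31, from a mean under the median level in both populations.

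The list of basal keratins and fate regulators was the other large group on the basal side. It also holds genes that are neither, among them Il17b, Igfbp2, Dll1, Tspan1 and Apod. The list was drawn up with earlier results of these data known, so its counts are a description. Of 29 genes 21 were lower in luminal cells, with a median of -3.40, and 3 were higher. Krt5 stood at 11.84, 11.61 and 11.57 in basal and 4.93, 5.24 and 5.47 in luminal arrays, 88.2-fold apart. Krt14, its partner, stood at 11.28 to 11.43 in basal and 6.12 to 6.83 in luminal arrays. Trp63, the master regulator of stratified and basal epithelium, differed by -4.58 ± 0.39. Snai2, a zinc finger repressor of basal cells, differed by -4.56 ± 0.33. Krt17 and Cdh3, which encodes P-cadherin, differed by -5.14 and -4.78. The 3 members that went the other way were Tspan1, Krt6a and Apod. Apod, a lipid carrier, stood at 8.66, 9.17 and 9.47 in luminal and 4.02, 5.01 and 4.83 in basal arrays.

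Part of the mesenchymal list moved with Snai2. Of 16 factors and markers of mesenchymal transition 4 were lower in luminal cells and 0 higher: Snai2, Vim, Axl and Fbln2. These 4 are 25% of the list, against 4.9% lower among all genes. All luminal arrays lay below all basal arrays for 8 of the 16, against 11.5% of all genes. For 8 of the 16 the means of both populations lay under the median level, where arrays measure poorly. The call of Fbln2 was lost when only the compared arrays were fitted. Vim, an intermediate filament, stood at 10.63 to 10.86 in basal and 6.27 to 6.72 in luminal arrays, a difference of -4.21 ± 0.33. Zeb1, Zeb2, Twist1 and Snai1, repressors that act in full mesenchymal transition, differed by 0.07, 0.04, -0.07 and 0.07 and were not called.

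Every gene called in the basement membrane list was lower in luminal cells. Of 28 laminin, collagen and basement membrane genes 17 were lower and 0 higher, with a median of -1.24; without adjustment 20 were lower and 1 higher at a p under 0.05. Sparc, a collagen-binding matrix protein, stood at 11.84 to 12.02 in basal and 5.02, 5.68 and 4.62 in luminal arrays. The laminin chains Lama1, Lama3, Lamb1 and Lamb3 differed by -4.04, -3.81, -3.18 and -2.92. Col17a1, a collagen of hemidesmosomes, differed by -3.75 ± 0.18 (adjusted p = 6.7e-11). Lama5, a further laminin alpha chain, had a difference of 0.75 and was not called.

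Of 30 integrin and adhesion genes, many of them receptors for that matrix, 15 were lower in luminal cells, 4 higher and 11 not called, with a median of -0.63. Itga6, the laminin receptor chain used to sort basal cells, stood at 10.86, 10.89 and 10.42 in basal and 8.31, 9.30 and 9.16 in luminal arrays, a difference of -1.80 ± 0.24. Its partner chains Itgb4 and Itgb1 were lower too and differed by -0.59 and -0.52. Of the 15 lower calls 12 held under all alternatives, and those of Itgb4 and Itgb1 were not among them. Dst, which links integrins to keratin, differed by -2.12 ± 0.20, and Itga3 by -2.13 ± 0.27. Ccn2, a matrix protein and target of YAP, differed by -2.57 ± 0.21. Cd44, Itgb6, Ccn1 and Cd9 were the 4 higher genes, the first at 1.31. The higher count ran from 1 to 4 over the alternatives, and 0 of these 4 calls held under all of them.

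**Figure D3:**
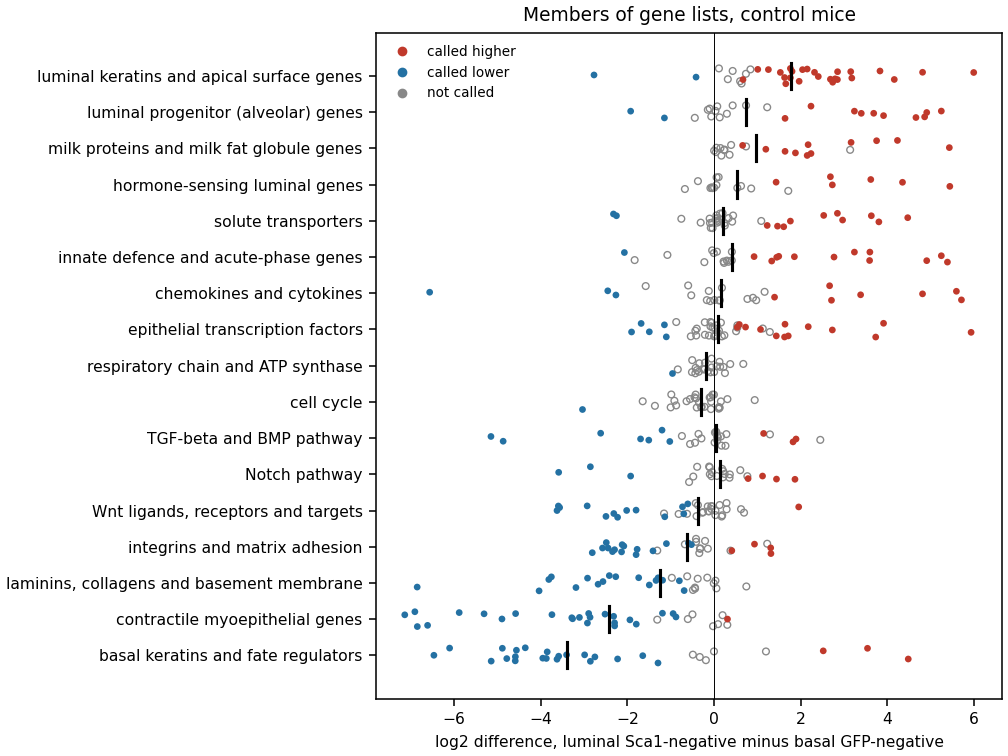
Log2 difference (x axis, luminal Sca1-negative minus basal GFP-negative, control mice) of each measured member of 17 gene lists (rows). Red and blue points are members called higher and lower, open circles are not called, and black bars are list medians, which run from -3.40 for basal keratins and fate regulators to 1.78 for luminal keratins and apical surface genes.

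Several genes outside the contractile and keratin lists had large differences towards the basal side. Cxcl14, a chemokine, stood at 11.88, 11.74 and 11.83 in basal and 5.30, 5.35 and 5.10 in luminal arrays, 94.3-fold apart. Postn, a matrix protein, stood at 11.63, 11.80 and 11.82 in basal and 4.15, 3.98 and 4.63 in luminal arrays, 181-fold apart and the largest difference among the genes named. Scn7a, a sodium channel of the voltage-gated family, differed by -6.84 ± 0.20 (adjusted p = 1.7e-13). Igfbp3, which binds insulin-like growth factors, differed by -6.10 ± 0.73. Antxr1, a receptor for anthrax toxin that binds collagen, differed by -5.78 ± 0.34.

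Postn is also used to mark fibroblasts. Of 12 fibroblast markers 2 were lower in luminal cells, Postn and Fbln1, and 0 higher. These 2 are 16.7% of the list, against 4.9% lower among all genes. For 6 of the 12 the means of both populations lay under the median level. The call of Fbln1 was lost without basal replicate 1 and when only the 6 arrays were fitted. Without Postn the mean level of the other 11 ran from 4.71 to 5.01 in basal and from 4.75 to 4.77 in luminal arrays. Col1a1 stood at 5.14 to 5.22 in basal and 5.13 to 5.19 in luminal arrays. Dcn, a proteoglycan of connective tissue, was well above the median level in both, at 9.32, 10.69 and 7.95 in basal and 9.88, 10.27 and 9.85 in luminal arrays, and was not called. Of 16 leukocyte, 13 endothelial and 8 adipocyte markers and the 1 erythroid marker measured, 0 were called in limma, with 4 at an unadjusted p under 0.05. Of 9 pericyte markers Mcam was lower, at -2.29, and Notch3 higher, at 0.79 (22.2% called, against 9.83% of all genes). For leukocyte markers 15 of 16 had means under the median level in either population, and their mean level ran from 4.08 to 4.23 in basal and from 4.18 to 4.25 in luminal arrays.

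Keratins, claudins and apical proteins marked the luminal side. Of 34 such genes 25 were higher in luminal cells and 2 lower, with a median of 1.78. Krt8, a keratin of simple epithelium, stood at 12.44, 12.67 and 12.57 in luminal and 10.95, 10.23 and 10.61 in basal arrays. Krt18, its partner, stood at 12.61 to 12.67 in luminal and 9.56 to 9.94 in basal arrays. Neither pair of ranges overlapped, though the differences, 1.96 ± 0.21 and 2.85 ± 0.34, were far smaller than those of Krt5 and Krt14. The 2 lower members were Krt23, at -2.77, and Patj, at -0.41.

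Several of the higher members belong to tight junctions. Cldn4, a claudin that seals sodium paths, stood at 10.78, 11.10 and 10.55 in luminal and 4.74, 4.47 and 5.24 in basal arrays, 63.6-fold apart. Cldn7 differed by 4.81 ± 0.50, Ocln, which encodes occludin, by 3.83 ± 0.33, and Cldn3 by 3.15 ± 0.29. Cgn, cingulin of the junction's inner face, differed by 2.04 ± 0.23. Epcam, a surface adhesion molecule, stood at 10.24 to 10.42 in luminal and 8.51 to 8.88 in basal arrays, 3.09-fold apart. Ceacam1, another adhesion molecule of the apical face, stood at 10.87, 11.30 and 11.20 in luminal and 4.49, 6.77 and 4.47 in basal arrays.

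Cadherins and desmosome genes lay on both sides. Of 14 genes 4 were higher and 5 lower in luminal cells. Cdh1, E-cadherin, differed by 2.32 ± 0.17, against -4.78 ± 0.35 for Cdh3. Pkp2, a plakophilin that anchors desmosomes, stood at 8.51, 9.19 and 8.95 in luminal and 3.95, 4.39 and 4.57 in basal arrays. Its relative Pkp1 differed by -1.97 ± 0.36, a call lost when only the 6 arrays were fitted. Dsp, which ties desmosomes to keratin, and Perp, a desmosome membrane protein, differed by -1.48 and -1.80.

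Of 23 alveolar progenitor genes 10 were higher in luminal cells, 2 were lower, Mia and Sox10, and 11 were not called, with a median of 0.74. Kit, the receptor for stem cell factor, stood at 9.66, 8.71 and 8.93 in luminal and 4.29, 4.41 and 4.62 in basal arrays, 25.3-fold apart. Elf5, which directs alveolar fate, stood at 8.84, 7.82 and 7.37 in luminal and 4.12, 4.03 and 4.14 in basal arrays, so the luminal arrays spread while the basal ones stayed under the median level. Aldh1a3, which makes retinoic acid, differed by 3.40 ± 0.31. Ltf, the iron-binding milk protein lactoferrin, stood at 10.69, 9.63 and 10.45 in luminal and 4.46, 4.71 and 5.87 in basal arrays. Trf, transferrin, differed by 3.68 ± 0.55.

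Some progenitor genes varied among the basal arrays. Cd14, the receptor for bacterial lipopolysaccharide, stood at 11.55, 11.47 and 11.44 in luminal and at 4.74, 6.83 and 8.17 in basal arrays 1, 2 and 3. Wfdc18, a small secreted protein of the WAP family, stood at 12.46 to 12.61 in luminal and at 5.49, 7.92 and 9.57 in the basal arrays, and lost its call in the fit of the 6 arrays alone. The mean of the 8 progenitor markers was 5.34, 6.07 and 6.71 in these basal arrays, while that of the 8 luminal markers was 8.18, 8.03 and 8.22. The part of these markers in the results was not tested. The luminal arrays stood at 9.67 to 9.98 for the progenitor markers, above every basal array.

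Part of the milk genes were higher in luminal cells. Of 22 milk protein and fat globule genes 11 were higher, 0 were lower and 11 were not called, with a median of 0.97. Csn1s1 stood at 9.49, 9.59 and 10.55 in luminal and 4.22, 4.84 and 4.29 in basal arrays, 43.1-fold apart. Csn2 stood at 8.80, 8.96 and 9.46 in luminal and 5.53, 5.24 and 5.18 in basal arrays. Btn1a1, which wraps milk fat droplets, differed by 4.23 ± 0.32, Muc15, a membrane mucin of these droplets, by 3.16 ± 0.51, and Csn3 by 2.24 ± 0.51. Wap, whey acidic protein, stood at 4.45 to 6.72 in luminal and 4.48 to 4.68 in basal arrays and was not called. Csn1s2a differed by 3.14 ± 1.10 and missed the call (adjusted p = 0.085), with luminal values of 7.01, 7.53 and 8.43 against 5.13, 4.03 and 4.39. Glycam1, whose promoter holds TTCNNNGAA, was under the median level in both populations, at 3.90 to 4.19. The list's count of higher members ran from 7 to 12 over the alternatives.

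Some solute transporters were higher in luminal cells. Of 33 solute transporters 10 were higher and 2 lower (36.4% called, against 9.83% of all genes). Slc28a3, a nucleoside carrier, stood at 8.85, 8.79 and 8.53 in luminal and 3.97, 4.28 and 4.51 in basal arrays. Slc5a5, the iodide transporter that puts iodide into milk, differed by 3.80 ± 0.53. Slc5a1, a sodium-glucose cotransporter, differed by 2.97 ± 0.23, and Slc12a2, a chloride cotransporter of secretory epithelia, by 2.85 ± 0.45. Slc6a6, a taurine carrier, was one of the 2 lower genes at -2.32 ± 0.39, beside Slc1a5. Gpx3, a secreted glutathione peroxidase, had the largest luminal excess of the genes named. It stood at 10.83, 9.92 and 11.18 in luminal and 4.24, 3.36 and 3.56 in basal arrays, 121-fold apart.

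Some hormone-sensing genes were above the basal level although the gate was Sca1-negative. Of 19 such genes 6 were higher, 0 lower and 13 not called, with a median of 0.54. Cited1, a coactivator of oestrogen signalling, stood at 10.43, 10.07 and 10.39 in luminal and 5.99, 6.08 and 5.78 in basal arrays. Foxa1, the pioneer factor of the oestrogen receptor, stood at 7.64, 6.38 and 8.75 in luminal and 5.15, 5.09 and 4.35 in basal arrays. Its call was lost when only the 6 arrays were fitted, and the list's higher count ran from 4 to 7 over the alternatives. Prom1 and Ly6d, surface proteins of hormone-sensing cells, differed by 2.69 ± 0.34 and 5.44 ± 0.83. The receptors themselves missed the call: Esr1 differed by 0.86 ± 0.30 (adjusted p = 0.088) and Pgr by 1.71 ± 0.57 (adjusted p = 0.069). Esr1 values were 6.37, 5.13 and 5.68 in luminal and 4.82, 4.84 and 4.95 in basal arrays, so the ranges did not overlap but stayed low. The mean of the 5 hormone-sensing markers measured ran from 7.08 to 8.06 in luminal and from 4.88 to 5.32 in basal arrays.

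The control Sca1-positive luminal arrays place these levels. Sca1-negative luminal arrays serve both comparisons, so the values are given side by side. Between the luminal gates 735 genes were called (3.69%), 320 higher (1.61%) and 415 lower (2.08%) in Sca1-negative cells. Of the 667 genes at least 2-fold higher than in basal cells, 96 were also higher than in Sca1-positive cells, 73 were lower and 498 were not called between the luminal gates. Of the progenitor list 11 of 23 were higher and 1 lower than in Sca1-positive cells, and of the milk list 10 of 22 were higher. Kit averaged 4.47 in Sca1-positive and 4.44 in basal cells, Csn1s1 4.96 and 4.45, Slc28a3 4.26 and 4.25, and Ltf 5.24 and 5.01. Erbb3 averaged 8.91, Pkp2 8.99, Cldn4 11.52 and Krt8 12.67 in Sca1-positive cells, against 8.93, 8.88, 10.81 and 12.56 in Sca1-negative cells, and none of these 4 genes was called between the luminal gates. Of the hormone-sensing list 6 of 19 were lower than in Sca1-positive cells, where Foxa1 averaged 10.01, Prom1 8.55 and Esr1 7.33. Tspan1, a tetraspanin, rose in steps, from a mean of 4.17 in basal to 6.69 in Sca1-negative and 9.14 in Sca1-positive cells, and both steps were called.

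**Figure D4:**
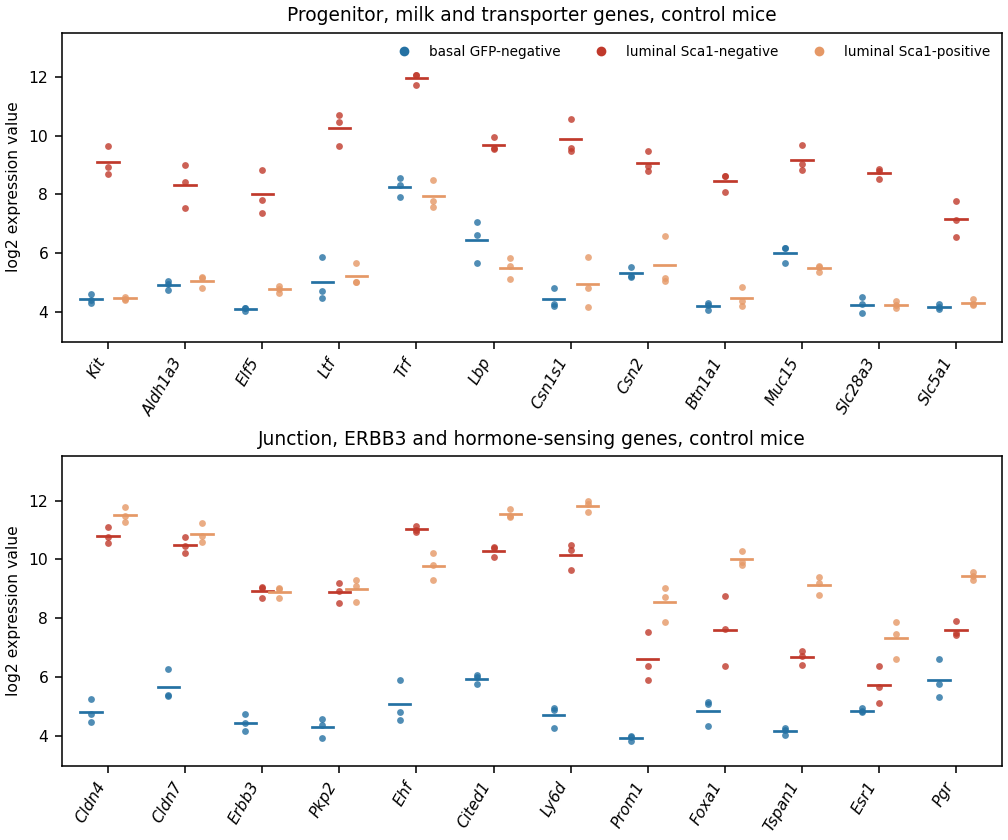
Log2 expression values (y axis) of 24 genes in control basal GFP-negative (blue), luminal Sca1-negative (red) and luminal Sca1-positive arrays (orange), 3 arrays each, with the mean as a line. The upper panel shows progenitor, milk and transporter genes, for which Kit, Csn1s1 and Ltf are high in the Sca1-negative arrays; the lower panel shows genes at similar levels in both luminal gates, such as Erbb3 and Pkp2, and hormone-sensing genes, such as Foxa1, that are highest in Sca1-positive arrays.

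A few genes were high in basal and Sca1-negative luminal cells and lower in Sca1-positive cells. Thbs1, a matrix glycoprotein that can activate TGF-beta, stood at 10.76, 10.63 and 10.45 in Sca1-negative luminal and 11.08, 10.95 and 10.78 in basal arrays, a difference of -0.32 ± 0.21 that was not called. Its Sca1-positive mean was 5.59. Lcn2, an iron-scavenging lipocalin, stood at 12.39 to 12.48 in Sca1-negative luminal and 12.05 to 12.21 in basal arrays, against a Sca1-positive mean of 8.69. Its difference from basal was 0.30 ± 0.26. Ccn2 lay between, with means of 11.35 in basal, 8.77 in Sca1-negative and 5.73 in Sca1-positive cells.

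Transcription factors of the ETS family led the luminal regulators. Of 45 epithelial transcription factors 13 were higher and 5 lower in luminal cells, with a median of 0.09, and the higher count ran from 5 to 13 over the alternatives. Ehf, an epithelial ETS factor, stood at 11.14, 10.92 and 11.02 in luminal and 4.53, 5.92 and 4.83 in basal arrays, 61.0-fold apart (adjusted p = 1.6e-10). Elf3, another of the family, stood at 8.46 to 8.70 in luminal and 4.67 to 5.08 in basal arrays. Klf5, a zinc finger activator of epithelial growth, differed by 2.17 ± 0.24, and Grhl1, a grainyhead factor of junction genes, by 1.71 ± 0.25. The 5 lower members were Tfap2b, Tfap2c, Tcf7l1, Sox10 and Runx1, the first at -1.90 ± 0.27. Gata3, a master regulator of luminal fate, stood at 8.42 to 9.08 in luminal and 7.71 to 8.85 in basal arrays, overlapped, and was not called. Stat5a, which carries the prolactin signal to milk genes, differed by 0.16 and was not called.

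The Notch ligands and receptors that were called lay on opposite sides. Of 24 pathway genes 4 were higher and 3 lower in luminal cells (29.2% called, against 9.83% of all genes). The 3 lower ones were ligands: Dll1 at -3.58 ± 0.20, Jag2 at -2.85 ± 0.31 and Jag1 at -1.92 ± 0.24. Dll1 stood at 9.07, 8.44 and 8.11 in basal and 5.15, 4.82 and 4.91 in luminal arrays. Among the higher ones were the receptors Notch1 at 1.87 ± 0.28, Notch3 at 0.79 ± 0.13 and Notch2 at 1.12 ± 0.30. Notch1 stood at 8.25, 7.60 and 7.91 in luminal and 6.54, 6.12 and 5.50 in basal arrays, with no overlap. The call of Notch2 was lost without luminal replicate 2, basal replicate 2 or basal replicate 3, with differences down to 0.88. That of Hey2, a target, was lost without luminal replicate 2, where its difference was 0.65, and without any of the 3 basal arrays. The targets Hes1 and Hey1 differed by 0.21 and -0.10 and were not called.

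Of 37 Wnt ligands, receptors and targets 13 were lower in luminal cells, 1 was higher and 23 were not called, with a median of -0.37. The lower ones included the R-spondin receptors Lgr5, Lgr4 and Lgr6, with Lgr4 at -3.56 ± 0.32 and Lgr6 at -2.22 ± 0.35, and the Wnt receptor Fzd7 at -2.93 ± 0.28. Wif1, a secreted Wnt inhibitor, stood at 8.07, 7.74 and 8.01 in basal and 4.28, 4.41 and 4.36 in luminal arrays. Wnt5b was the higher member, at 6.97, 6.99 and 6.89 in luminal and 4.70, 4.86 and 5.44 in basal arrays. Axin2, a standard readout of Wnt signalling, differed by -0.70 ± 0.18. The count of lower members ran from 8 to 14 over the alternatives.

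The ERBB family, which binds EGF-type ligands and neuregulins, had calls on both sides. Of 16 genes 2 were higher and 2 lower in luminal cells (25% called, against 9.83% of all genes). Erbb3, a neuregulin receptor, stood at 9.04, 8.69 and 9.06 in luminal and 4.18, 4.76 and 4.43 in basal arrays, 22.1-fold apart (adjusted p = 6.7e-11). Hbegf, a ligand of EGFR, stood at 10.67 to 10.99 in luminal and 6.39 to 7.88 in basal arrays. Nrg1, the neuregulin that binds ERBB3, was lower at -1.64 ± 0.40, a call lost without luminal replicate 1 or basal replicate 2. Over the alternatives its difference ran from -1.84 to -1.38. Lrig3, a membrane inhibitor of the family, differed by -1.84 ± 0.28. Egfr stood at 7.90, 7.91 and 8.17 in luminal and 7.98, 9.13 and 8.55 in basal arrays, overlapped and was not called, as was Erbb2 at 0.85.

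Other growth factor genes lay on both sides. Of 30 FGF, IGF and related genes 6 were higher and 9 lower in luminal cells. Besides Igfbp3, the binding proteins Igfbp2 and Igfbp7 differed by -4.35 ± 0.26 and -2.76 ± 0.45. Hgf, the ligand of MET, stood at 6.99, 6.46 and 5.67 in basal and 3.79 to 3.95 in luminal arrays, and Met was higher in luminal arrays at 2.54 ± 0.43. Epha2, an ephrin receptor, differed by 2.47 ± 0.28. In the TGF-beta and BMP list of 28, 3 were higher and 7 lower (35.7% called, against 9.83% of all genes). Tgfbr3, a coreceptor, and Ltbp2, a matrix protein of the latent TGF-beta family, differed by -4.86 ± 0.22 and -5.15 ± 0.29, and Bmp7 by -2.61 ± 0.47. Tgfb2, a ligand, was higher by 1.89 ± 0.37.

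Of 36 semaphorin, ephrin, slit and netrin genes, which guide growing axons and ducts, 3 were higher, 9 lower and 24 not called in luminal cells. The share called was 33.3%, against 9.83% of all genes. Sema3c, a secreted semaphorin, stood at 9.26, 8.98 and 8.75 in basal and 4.37, 4.30 and 3.96 in luminal arrays. Slit3 and Ntn4 differed by -2.72 and -2.17, whereas Ntn1, a secreted netrin, was higher by 2.13 ± 0.25. Of 24 PI3-kinase pathway and FOXO genes 2 were higher and 5 lower. Pik3cb, a catalytic subunit, stood at 9.39, 9.50 and 9.76 in luminal and 6.15, 7.34 and 7.69 in basal arrays. Pik3r1, the regulatory subunit, stood at 8.64 to 9.27 in luminal and 10.30 to 10.75 in basal arrays, a difference of -1.68 ± 0.25. Pik3ca, the gene whose mutant form the other mice carry, differed by -0.68 ± 0.21 (adjusted p = 0.049) and was called in 3 of the 14 alternatives, losing the call without any of the 6 arrays. Its difference ran from -0.77 to -0.56.

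Of 25 innate defence genes 12 were higher in luminal cells, 1 was lower and 12 were not called, with a median of 0.41. The higher count ran from 8 to 12 over the alternatives. Hp, the haemoglobin scavenger haptoglobin, stood at 10.34, 8.28 and 10.13 in luminal and 4.00, 4.29 and 4.31 in basal arrays. Lbp, which passes lipopolysaccharide to CD14, stood at 9.54, 9.96 and 9.56 in luminal and 7.05, 6.62 and 5.67 in basal arrays. Tlr4, the signalling receptor for it, differed by 2.77 ± 0.43, so that Lbp, Cd14 and Tlr4 were all called higher. Nfkbia, which holds back NF-kappa-B, differed by 1.45 ± 0.19. Slpi, a protease inhibitor, was the lower member, at 12.33, 12.12 and 12.10 in basal and 10.15, 9.98 and 10.22 in luminal arrays.

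Chemokines lay on both sides. Of 24 chemokines and cytokines 7 were higher and 3 lower. Cxcl1 and Cxcl2, which draw neutrophils, differed by 2.67 ± 0.23 and 4.81 ± 0.46, and Cxcl2 stood at 10.97, 11.34 and 11.09 in luminal and 6.67, 6.12 and 6.19 in basal arrays. Lif, a cytokine of the interleukin-6 family, stood at 11.11, 10.53 and 10.36 in luminal and 4.45, 5.14 and 5.28 in basal arrays, 52.3-fold apart. Cxcl15 and Cxcl17 differed by 5.59 ± 0.90 and 3.38 ± 0.26. The lower ones were Cxcl14, Cxcl12 and Ccl7, the second at -2.26 ± 0.25. Il17b, a cytokine counted among the basal genes, stood at 10.35, 10.08 and 10.10 in basal and 5.75, 5.31 and 5.72 in luminal arrays. Of 21 interferon and class I presentation genes 2 were higher and 1 lower, and 0 of these calls held under all alternatives. The share called, 14.3%, was near the 9.83% of all genes.

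Lists of stress, metabolism and growth genes ranged from shares of calls above the 9.83% of all genes to shares below it. Of 20 immediate early and dissociation genes, which rise while tissue is digested and sorted, 2 were higher and 6 lower, with a median of -0.20. Klf6 was higher by 1.52 ± 0.15 and Nr4a1 differed by -1.80 ± 0.20, and Fos, Egr1, Junb and Dusp1 differed by -0.67, -0.69, -0.33 and -0.72. The lower count ran from 3 to 6 over the alternatives: Junb kept its call in 6 of 14 and lost it without luminal replicate 1 or 2 or basal replicate 1 or 3, with a difference of -0.37 to -0.27. Fos lost its call without luminal replicate 2 or basal replicate 1 (-0.76 to -0.48), Dusp1 without luminal replicate 1 or 3 (-0.91 to -0.60), and Egr1 without luminal replicate 2 (-0.77 to -0.56). The part of these genes in the other results was not tested. Of 24 respiratory chain genes 0 were higher and 1 lower, Ndufb3 at -0.96, a call kept in 6 of the 14 alternatives and lost without luminal replicate 1 or 2 or any basal array. Of 27 sterol and fatty acid genes 3 were higher and 1 lower (14.8% called). Of 19 glycolysis genes 3 were higher and 1 lower (21.1% called), led by Aldoc, a brain-type aldolase, at 3.63 ± 0.66. Of 29 genes of the endoplasmic reticulum 5 were higher and 4 lower, with Hspa5, its main chaperone, at 0.57 ± 0.10. Of 29 cell cycle genes 0 were higher and 1 was lower, and 3 were lower at an unadjusted p under 0.05. That gene was Ccnd2, a D-type cyclin, at 8.47, 9.14 and 7.87 in basal and 5.66, 5.19 and 5.50 in luminal arrays. Mki67, the proliferation marker, stood at 5.84 to 6.71 in luminal and 6.56 to 6.94 in basal arrays and was not called. Of the counts of 0 given for lists here and above, 1 hormone-sensing gene was lower at an unadjusted p under 0.05, and 0 milk, mesenchymal, fibroblast, respiratory or cell cycle genes passed that level on the side named.

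Apoptosis regulators had a larger share of calls than all genes, and chromatin genes a share near that of all genes. Of 16 apoptosis regulators 4 were higher and 2 lower (37.5% called, against 9.83% of all genes). The higher ones were Mcl1, Bcl2l14, Bik and Birc3, and the lower ones Bak1 and Bok. Over the alternatives Bcl2l14 differed by 0.93 to 1.17, Bik by 0.98 to 1.71 and Birc3 by 1.04 to 1.20. Bcl2l14 kept its call in 14 of 14, while Bik, Birc3 and Bok each lost theirs under at least 1. Mcl1, an antiapoptotic BCL2 relative, stood at 10.15 to 10.53 in luminal and 9.43 to 9.78 in basal arrays, a difference of 0.81 ± 0.18. Bak1, a pore former, was lower at -2.21 ± 0.67, but its basal values were 8.46, 11.67 and 8.37 and without basal replicate 2 its difference was -1.13 and the call was lost, as it was without luminal replicate 1 or 2. Of 23 chromatin genes 1 was higher and 2 lower (13.0% called). The higher one, Kdm6b, lost its call without basal replicate 1. Tet1, which oxidises methylated cytosine, stood at 8.21, 7.72 and 7.27 in basal and 4.44, 4.99 and 4.22 in luminal arrays. Smarca2, an ATPase of the SWI/SNF complex, differed by -2.28 ± 0.25.

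In mutant mice luminal Sca1-negative and basal GFP-negative cells were compared in 6 other arrays. Their luminal cells were GFP-positive, and the arrays of both genotypes share the fit's estimate of spread. There 2016 genes were called (10.1%), 1105 higher (5.54%) and 911 lower (4.57%). Of the 1960 control calls 1136 were called the same way in mutant mice, 58.0% of the control calls and 56.3% of the mutant ones, and 1868 had the same sign. Of the 1409 control calls of at least 2-fold, 949 were called the same way (67.4%) and 34 had the opposite sign. Over all genes the differences correlated at 0.791, a description across genes, which are not independent. Scn7a differed by -6.87 in mutant mice against -6.84 in control mice, Myh11 by -6.18 against -6.61 and Ltf by 5.60 against 5.24. Other genes with large control differences were not called in mutant mice, among them Cxcl15, Ly6d and Igfbp3. Over the alternatives their mutant differences ran from 0.002 to 2.58, 0.44 to 2.01 and -2.21 to -1.63. Igfbp3 was called there in 1 of 14 alternatives, and Cxcl15 and Ly6d in 0. Cxcl15, Ly6d and Igfbp3 were not among the 20 genes called in the direct comparison of the genotypes below. A missing call in mutant mice is therefore not a change shown between genotypes. The basal keratin list had 18 of 29 lower and the milk list 14 of 22 higher in mutant mice.

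The genotypes were then compared directly, as the mutant difference minus the control difference. It was called for 20 genes (0.1%), 16 above (0.0803%) and 4 below 0 (0.0201%), and 1313 genes had an unadjusted p under 0.05. The count was 43 without dim genes, those under 4.60 in every group compared. Genotype and GFP state go together in the luminal cells and cannot be told apart there. Krt5 differed by -6.46 in control and -3.03 in mutant mice, a change of 3.43 ± 0.61 (adjusted p = 0.031). That call was lost in 12 of 20 alternatives, among them leaving out any array but control luminal replicate 3 or mutant luminal replicate 2, with a change of 3.21 to 3.72. Its mutant luminal values were 8.63, 7.92 and 8.94, against 4.93 to 5.47 in control luminal arrays, while basal values were 11.50 to 11.56 and 11.57 to 11.84. Cxcl14 and Il17b, both basal genes in control mice, changed by 2.34 ± 0.30 and 2.77 ± 0.33. The mean level of the 10 basal markers ran from 6.33 to 6.89 in mutant luminal arrays and from 5.20 to 5.31 in control luminal arrays, and 9 of the 10 had the higher mean in the mutant. Of these 10, Krt5 was the one whose change was called, and the markers' part in the result was not tested. The 8 luminal markers averaged 8.58 to 8.90 in mutant basal arrays, against 8.03 to 8.22 in control basal arrays. Amtn, an enamel and epithelial attachment protein, differed by 1.74 in control and 6.41 in mutant mice, with mutant luminal values of 10.08, 10.18 and 10.60. Mdga2, a surface protein of neurons, and Tspan1 went the other way, from 3.25 to 0.04 and from 2.52 to 0.67. Called in opposite directions in the genotypes were 2 genes: Pgf, a placental relative of VEGF, at -2.62 and 2.10, and Trim21, an antibody receptor, at -0.69 and 0.81.

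**Figure D5:**
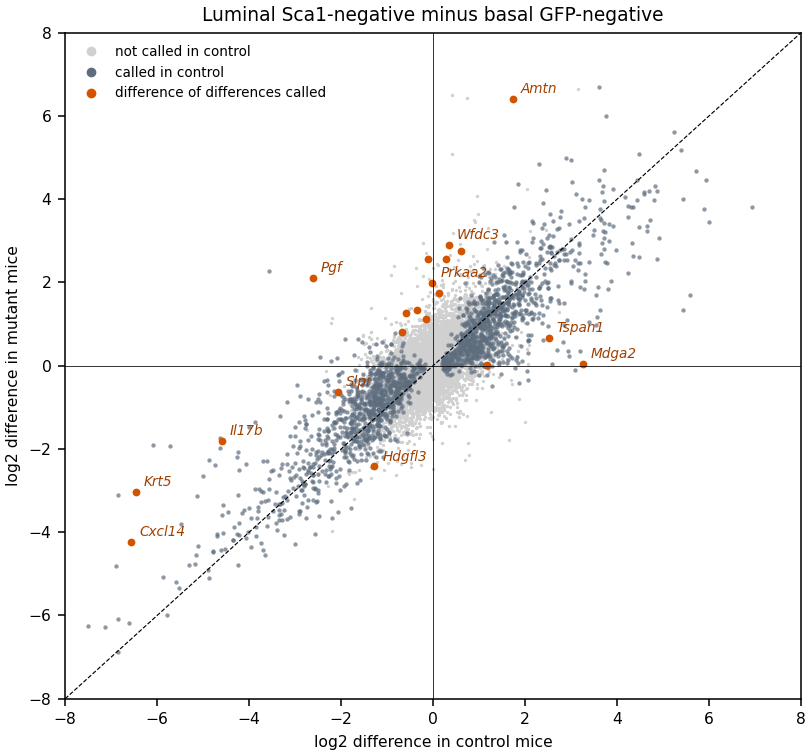
Luminal Sca1-negative minus basal GFP-negative log2 difference in control mice (x axis) against the same in mutant mice (y axis), 1 point per gene, with genes called in control mice in dark grey and the 20 genes whose difference differed between genotypes in orange. The dashed line marks equal differences, and 1868 of 1960 dark points have the same sign on both axes; Krt5, Il17b and Cxcl14 lie above the line at the lower left, and Pgf lies above 0 for mutant and below 0 for control mice.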

How the data were processed

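The authors deposited log2 expression values per probe set of an Affymetrix gene array, 1 column per array. Per the submitters' processing notes the software was affy; version, background correction, normalization and summarization are not given in the sources used here, and detection calls were not used here. The log2 scale was read from the deposited values, which run from 2.586 to 13.54. Of 34760 probe sets 21640 had 1 symbol, and 21553 of these matched a RefSeq gene by Entrez identifier. For 954 genes with several probe sets the one brightest over all arrays was kept.

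A limma fit (limma 3.58.1, R 4.3.3) gave each of 8 groups its mean over 24 arrays, with 16 residual degrees of freedom, no covariate, two-sided tests and Benjamini-Hochberg adjustment over 19937 genes within each comparison. No array was left out, and no 2 arrays of a group were alike enough to be 1 library. The code was tested on simulated data. Errors after ± are standard errors of the fit. The number of arrays limits the precision. The 36 gene lists are described by counts and medians, with no list test.

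Named genes follow a rule: up to 12 each way with the largest difference among called genes whose arrays do not overlap, without predicted genes, clones, receptors of smell, small RNAs and pseudogenes; up to 8 called members of each list with the smallest p; the cell type markers, Pik3ca, Lgr5 and Ptprc; and up to 6 each way by p in the other comparisons. Further list members, given for their role or as exceptions, were chosen after their values were seen. The comparison and the lists were chosen with earlier results of these data known. In the lists 7 older symbols were read under their current names. Alternatives were the fit of the compared arrays alone, quantile normalization, median centring, leaving out dim genes (under 4.60 in every group compared), averaged probe sets, array weights, a replicate block, leaving out the control basal GFP-positive arrays, each array left out, and a 100-base promoter window.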

Additional observations from a re-analysis of the deposited data

Results flagged for a closer look

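The luminal minus basal difference was tested for a change between mutant and control mice, and 12 genes named for it are given as values. The change was above 0 for Pgf (4.71), Amtn (4.67), Krt5 (3.43), Il17b (2.77), Wfdc3 (2.56), Cxcl14 (2.34), Prkaa2 (2.00) and Slpi (1.44). It was below 0 for Mdga2 (-3.22), Tspan1 (-1.85), Galnt15 (-1.16) and Hdgfl3 (-1.14). Prkaa2, a catalytic subunit of the energy sensor AMPK, stood at 6.27, 6.78 and 6.51 in mutant luminal arrays and at 4.31 to 4.65 in control luminal arrays, with basal values of 4.17 to 4.76 in both genotypes. Wfdc3, a small protein of the WAP family, stood at 7.17 to 8.23 in mutant luminal and 4.77 to 4.99 in control luminal arrays. Galnt15, a glycosyltransferase, stood at 5.36 to 5.73 in control luminal arrays and at 4.00 to 4.41 in mutant ones. Hdgfl3, a growth factor relative, was at 4.11 to 4.24 in all luminal arrays of both genotypes and higher in mutant basal (6.47 to 6.91) than control basal arrays (5.22 to 5.81). The calls of Krt5, Slpi and Hdgfl3 held in 8, 6 and 6 of 20 alternatives.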

How the results depend on the processing

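No named result that was called reversed direction under any alternative. Of 206 named genes called in the control comparison, 153 kept the call under all 14 alternatives and 53 lost it under at least 1. With only the compared arrays in the fit, which leaves 4 residual degrees of freedom, the control comparison (control luminal Sca1-negative minus control basal GFP-negative) called 1045 genes, 493 higher and 552 lower, and the luminal gates (control luminal Sca1-negative minus control luminal Sca1-positive) 311, 139 higher and 172 lower. Without dim genes the change between genotypes was called for 43 genes, 35 above and 8 below 0. The replicate block gave 34 genes, 27 above and 7 below 0, for that change, and 1992 for the control comparison (993 higher, 999 lower); same-numbered arrays correlated at 0.059, 0.009 and -0.016 in their deviations, so the numbers were not taken to pair the samples. Leaving out 1 array gave 1469 to 1744 calls in the control comparison. For the change between genotypes it gave 19 to 28 genes, 13 to 22 above and 3 to 9 below 0. For the luminal gates it gave 458 to 582 genes, 194 to 259 higher and 264 to 346 lower. In the 100-base promoter window the CArG box stood in 2 of 28, TTCNNNGAA in 2 of 15 and GGAAGT in 0 of 14 genes. Low signal, near or under 4.60, limits the size of many folds.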

Other observations

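Of 13120 probe sets without exactly 1 gene symbol, fitted apart, 270 were called (2.06%), 196 higher and 74 lower in luminal cells.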
